A study of Mus musculus with 12 samples.

Results

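The mouse gene Met gives rise to circular RNAs (circRNAs), single-stranded loops made when a splice donor is joined back to an acceptor upstream of it. All circRNAs whose host gene was listed as Met, and no other gene, were taken from both deposited tables. They number 11, of 13474 circRNAs listed in either table. The melanocyte table lists all 11 among its 12910 circRNAs, and the mammary table lists 6 among its 9492. Of the melanocyte entries, 4053 had 0 reads in every library of that table, and no mammary entry did. The numbers of circRNAs listed are thus not like for like. Met was picked because earlier results of these data had shown its circRNAs to differ between lines in both tables. Its levels and fold changes are therefore given as a description, with no test.

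Met encodes the receptor tyrosine kinase for hepatocyte growth factor. Binding of the ligand to the extracellular Sema domain brings receptors together, the kinase domains phosphorylate each other, and adaptors such as Gab1 and Grb2 then feed the Ras/MAPK and PI3K/Akt routes. In epithelia the receptor drives scattering and branching, and in melanocytes it supports growth, migration and survival. A circRNA of human MET has been reported to be translated in glioblastoma.

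The study sequenced circRNAs in 4 mouse cell lines, with 3 libraries per line, and its title asks whether circRNAs particular to tumours code for peptides that the immune system can see. B16F10 are melanoma cells and Melan-a are melanocytes, while 4T1 are breast cancer cells and Eph4-ev are breast epithelial cells. No line was treated, and RNA of all 4 was digested with RNase R, an exonuclease that removes linear RNA. Each lineage has 1 tumour line and 1 non-tumour line, so what comes with the tumour and what is particular to a line cannot be told apart. The labels do not say that the libraries of a line came from separate cultures, so p-values measure only the spread between these libraries, which may be technical.

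Each library held between 15572 and 56649 back-spliced junction reads, the reads that cross the join of a circRNA. Levels are given as RPM, reads per 1000000 junction reads of the same library, so 1 read was worth between 17.7 and 64.2 RPM. In RPM, fewer cells carrying a circRNA and less of it per cell cannot be told apart. Marker genes went with the labelled cell types. Of 14 melanocyte markers, 9 had reads in the melanocyte table, and their circRNAs summed to 10978 to 12743 RPM in B16F10 libraries and to 6980, 9476 and 5525 RPM in Melan-a replicates 1, 2 and 3, against 0 in 4T1 and 0 to 88.3 RPM in Eph4-ev. This sum was thus higher in every B16F10 library than in any Melan-a library and, within Melan-a, highest in replicate 2, as was Met below, and its part in the Met difference was not tested. Of 14 epithelial markers, 4 (Cdh1, Epcam, Esrp1, Grhl2) had reads in the mammary table, with overlapping sums of 1220 to 1748 RPM in 4T1 libraries and 1343 to 1746 RPM in Eph4-ev libraries, against 0 to 39.9 RPM in the melanocytic lines. Keratin markers had 0 reads, and none of 8 immune markers had any. Of 10 mesenchymal markers, Zeb1 and Fn1 had reads in the mammary table, with 0 in every 4T1 library against 118 to 177 RPM in Eph4-ev libraries, and so were lower in 4T1 together with Met; their part was not tested. Vim and Zeb2 had reads in the melanocyte table, with 99.9 to 120 RPM in B16F10 libraries and 359, 209 and 0 RPM in Melan-a replicates 1, 2 and 3. The library of Melan-a replicate 2 stood apart. It was also the deepest melanocytic library, with 33557 junction reads against 25072 and 25157 in replicates 1 and 3. The part of depth was not tested. Over 396 circRNAs its log2 levels correlated with those of the B16F10 libraries at 0.35 to 0.42, against 0.21 to 0.30 for the other Melan-a libraries. Its correlations with Melan-a replicates 1 and 3 were 0.65 and 0.61, against 0.70 between replicates 1 and 3. Of 9 circRNAs with at least 5 reads in every B16F10 library and none in the other Melan-a libraries, 3 had reads in replicate 2, at 2.94% of their summed B16F10 level. The same measure was 4.92% in Melan-a replicate 1 and 11.8% in replicate 3.

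All 11 Met circRNAs began and ended exactly at annotated exon boundaries of the transcript Met-203 (gene ENSMUSG00000009376.15, mm10 chr6:17463800-17573980, + strand), which has 22 exons. They used 5 start exons and 7 end exons. Exon 2, of 49 bases, lies wholly in the 5′ untranslated region, and exon 3, of 1211 bases, holds the start codon and 1197 coding bases, most of those for the Sema domain. Exons 16 to 20 lie in the part that codes for the intracellular region, which holds the kinase domain. Another annotated transcript, Met-202, lacks exon 2. The 4 circRNAs that together held most Met reads combined 2 starts (exon 2 or 3) with 2 ends (exon 3 or 4), and 3 rarer ones, of which a pair is shown, shared the end of exon 20. Their junctions are shown because the join is all that the reads of a circRNA identify. Each is written 5′ to 3′ on the + strand of mm10, with the last 25 bases of the end exon in lower case and the first 25 bases of the start exon in capitals, read from the GENCODE transcripts.
exons 2 to 3 (chr6:17487797-17492437): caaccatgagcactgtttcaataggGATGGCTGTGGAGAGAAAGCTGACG
exons 2 to 4 (chr6:17487797-17513541): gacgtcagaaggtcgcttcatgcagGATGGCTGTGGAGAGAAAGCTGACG
exon 3 (chr6:17491227-17492437): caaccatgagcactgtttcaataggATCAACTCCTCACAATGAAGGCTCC
exons 3 to 4 (chr6:17491227-17513541): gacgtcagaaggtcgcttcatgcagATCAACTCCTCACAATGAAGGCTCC
exons 5 to 20 (chr6:17526313-17563719): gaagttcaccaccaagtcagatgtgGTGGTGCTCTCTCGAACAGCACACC
exons 16 to 20 (chr6:17553239-17563719): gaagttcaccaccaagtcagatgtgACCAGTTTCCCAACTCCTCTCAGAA

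**Figure D1:**
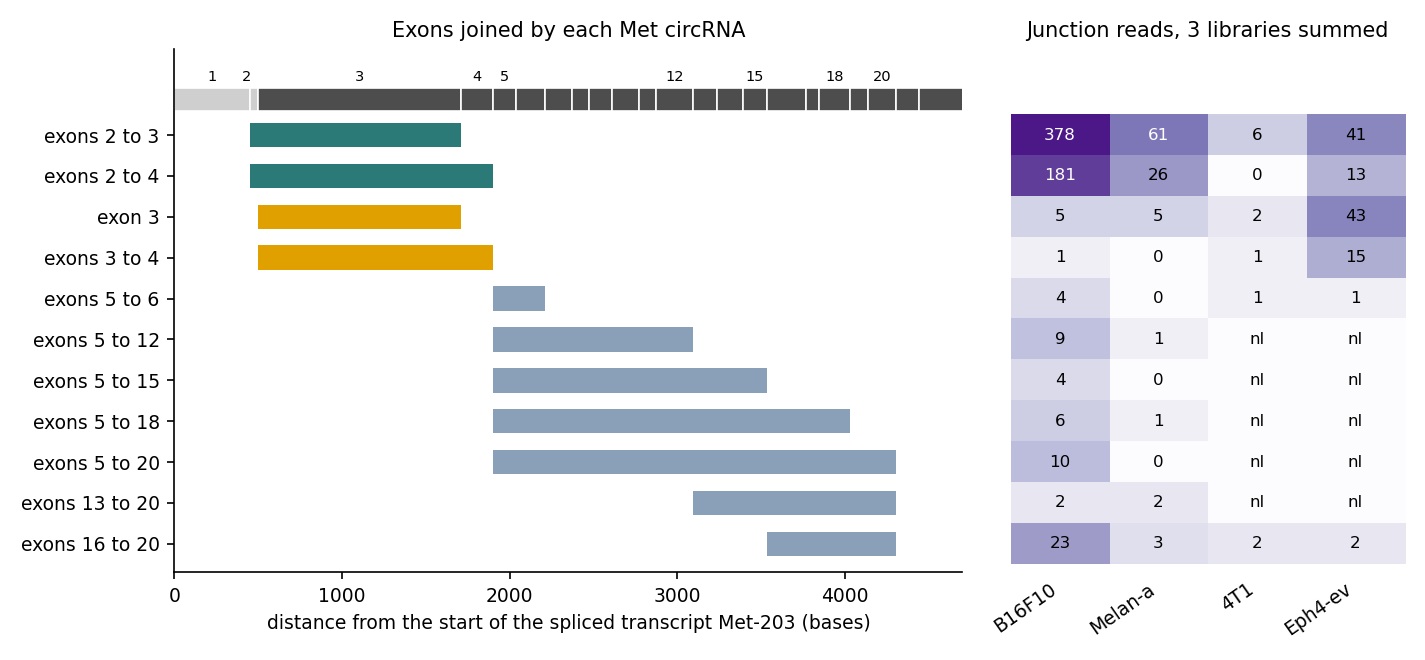
Left, the exons between the ends of each of the 11 Met circRNAs, along the spliced transcript Met-203 (x axis, bases from its start; light grey boxes hold no coding sequence). Right, junction reads summed over the 3 libraries of a line, with nl for circRNAs that the mammary table does not list. CircRNAs that start at exon 2 (teal) held 559 of 623 Met reads in B16F10 and 54 of 115 in Eph4-ev, and those that start at exon 3 (yellow) held 6 in B16F10 and 58 in Eph4-ev.

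Summed over all its circRNAs, Met stood highest in B16F10. The 3 B16F10 libraries held 214, 205 and 204 Met reads (10694, 12099 and 12218 RPM), against 15, 68 and 16 in the Melan-a libraries (598, 2026 and 636 RPM). The lines did not overlap, and the highest Melan-a value was that of replicate 2, the library that stood apart. The 4T1 libraries held 4, 0 and 8 Met reads (257, 0 and 179 RPM), against 47, 37 and 31 in the Eph4-ev libraries (928, 653 and 558 RPM). These lines did not overlap either, and the 0 of 4T1 replicate 2 allows a level of up to 169 RPM at 3 counts. Floors and intervals cover counting error only. A fold given below as at least a value sets 3 counts against the observed level of the other line. It leaves out the counting error of that other line, so the true fold could be smaller.

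B16F10 averaged 11670 ± 848 RPM, Melan-a 1087 ± 814, 4T1 145 ± 132 and Eph4-ev 713 ± 192 (SD, n = 3 libraries each). The order of the lines was thus B16F10, Melan-a, Eph4-ev and 4T1. The neighbours Melan-a and Eph4-ev overlapped in their libraries, and the other neighbours did not. The tables of the 2 lineages were scaled separately, each library to its own junction reads. Met was 3.28 higher on the log2 scale in B16F10 than in Melan-a (SE 0.41) and 2.36 lower in 4T1 than in Eph4-ev (log2 fold −2.36, SE 0.68). Without Melan-a replicate 2 the log2 fold in B16F10 was 4.16 (SE 0.20). Over all tested hosts, the median log2 fold was −0.0015 for B16F10 (898 hosts) and −0.09 for 4T1 (1515 hosts). Libraries of the lines did not overlap, higher in B16F10, for 17% of hosts, and lower in 4T1 for 19.2%; these shares are given for scale only, since Met was picked on these contrasts. The B16F10 fold minus the 4T1 fold was 5.63 (SE 0.64) on the log2 scale.

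**Figure D2:**
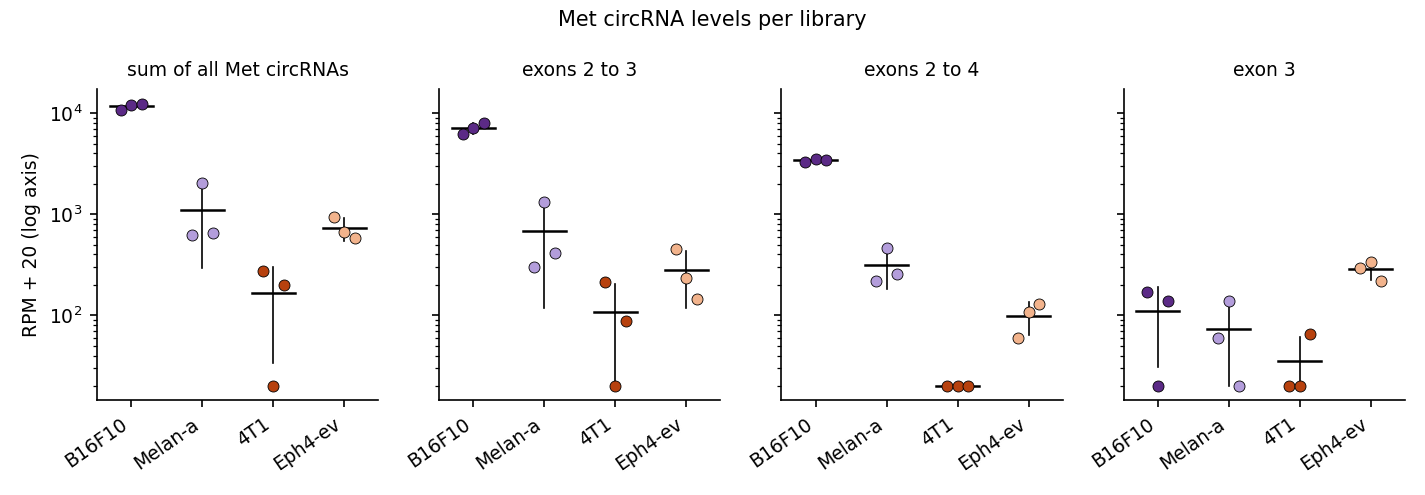
Level of all Met circRNAs together and of the 3 with most reads, as RPM plus 20 on a log axis. Points are libraries, thick bars the mean of 3 and thin lines 1 SD either way, stopped at 0 RPM. The 3 B16F10 libraries lie above all others for the sum and for both circRNAs that start at exon 2, whereas for exon 3 alone the 3 Eph4-ev libraries lie highest.

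The circRNAs that start at exon 2 made up most of the B16F10 signal. The circRNA of exons 2 to 3, a loop of the last untranslated exon and the exon with the start codon, had 125, 120 and 133 reads in B16F10, against 7, 44 and 10 in Melan-a. It had 3, 0 and 3 reads in 4T1, against 22, 12 and 7 in Eph4-ev. The B16F10 and Melan-a libraries did not overlap, whereas in RPM the highest 4T1 library (193) lay above the lowest Eph4-ev library (126). Its log2 fold was 3.28 (SE 0.46) in B16F10 and −1.84 (SE 0.99) in 4T1. Without Melan-a replicate 2 the B16F10 value was 4.31 (SE 0.30).

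The circRNA of exons 2 to 4 adds the exon after it. It had 65, 59 and 57 reads in B16F10, against 5, 15 and 6 in Melan-a. None of the 3 4T1 libraries held a read of it, against 2, 5 and 6 reads in Eph4-ev. At 3 counts over the line, and with the Eph4-ev reads taken as exact, it was at least 2.07-fold lower in 4T1. In both lineages the lines did not overlap. Its log2 fold in B16F10 was 3.38 (SE 0.36), and 3.86 (SE 0.32) without Melan-a replicate 2.

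The circRNAs that start at exon 3 had another pattern, with most of their reads in Eph4-ev. Exon 3 alone, a single exon joined to itself, had 0, 0 and 2 reads in 4T1, against 14, 18 and 11 in Eph4-ev. It had 3, 0 and 2 reads in B16F10, against 1, 4 and 0 in Melan-a. The mammary lines did not overlap, and the melanocytic lines did. Its log2 fold in 4T1 was −3.52 (SE 1.05). Replicate 3 held its only 4T1 reads, and without that library the fitted value of −6.47 rests on 0 reads, so its size depends on the fit and exon 3 was at least 2.93-fold lower at 3 counts over both remaining libraries. In B16F10 over Melan-a the pooled ratio was 1.56, with a 95% exact counting interval of 0.359 to 6.79. The circRNA of exons 3 to 4 had 0, 0 and 1 reads in 4T1, against 7, 1 and 7 in Eph4-ev, a pooled ratio of 0.139 (95% exact counting interval 0.00331 to 0.905). In the melanocytic lines it had 1 read, in B16F10 replicate 3, and none in Melan-a.

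Of the Met circRNAs, 2 of 11 passed the filter on low counts in the melanocyte table (exons 2 to 3 and exons 2 to 4) and 2 of 6 in the mammary table (exons 2 to 3 and exon 3). Both of the first pair had B16F10 libraries above all Melan-a libraries, where 16.9% of all 874 tested circRNAs did. Of the second pair, exon 3 had 4T1 libraries below all Eph4-ev libraries, where 19.9% of 1869 did. Nothing is read from these shares, because Met was picked on the same contrasts.

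The remaining 7 circRNAs start at exon 5 or later, within the coding sequence, and held few reads. Together they held 58 of 623 Met reads in B16F10 (9.30 ± 3.67% per library, SD, n = 3) and 7 of 99 in Melan-a (6.90 ± 6.68%). They held 3 of 12 Met reads in 4T1 and 3 of 115 in Eph4-ev (2.32 ± 2.15%). The circRNA of exons 16 to 20, from the part for the intracellular region, was the most read of them. It had 9, 11 and 3 reads in B16F10 against 0, 3 and 0 in Melan-a. In RPM its lowest B16F10 library (180) lay above its highest Melan-a library (89.4), and the pooled ratio was 11.97 (95% exact counting interval 3.62 to 62.3). In the mammary lines it had 2 reads in 4T1, all in replicate 3, and 2 in Eph4-ev, all in replicate 1.

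The exon 5 start was shared by 5 circRNAs that end at exons 6, 12, 15, 18 and 20. Together they had 33 reads in B16F10 and 2 in Melan-a. The loop of exons 5 to 20 had 2, 5 and 3 reads in B16F10 and none in Melan-a, at least 5.21-fold higher at 3 counts over the line. The loop of exons 5 to 12 had 6, 1 and 2 reads in B16F10, against 0, 1 and 0 in Melan-a (pooled ratio 14.1, 95% exact counting interval 1.95 to 616). The loop of exons 5 to 18 had 2, 4 and 0 reads in B16F10, against 0, 1 and 0 in Melan-a (pooled ratio 9.37, interval 1.14 to 431). Exons 5 to 6 had 0, 3 and 1 reads in B16F10 and none in Melan-a, with a single read in 4T1 and a single read in Eph4-ev. The other two, exons 5 to 15 and exons 13 to 20, had 4 reads each over all libraries. Of these loops, only exons 5 to 6 are listed in the mammary table. The end of exon 20 closes 3 loops, those of exons 5 to 20, 13 to 20 and 16 to 20, and the lower-case parts of the first and last of these junctions are the same above.

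Whether the make-up of the Met reads differed between the lines of a lineage was tested on shares, which do not depend on the level of Met. The circRNA of exons 2 to 3 took 58.4, 58.5 and 65.2% of Met reads in the B16F10 libraries (60.7 ± 3.9%, SD, n = 3) and 46.7, 64.7 and 62.5% in the Melan-a libraries (58.0 ± 9.8%, n = 3). The difference of 2.76 percentage points was within the spread between libraries (exact two-sided permutation p = 0.8, where 3 against 3 allows no less than 0.1), and without Melan-a replicate 1 it was −2.89 points. In 4T1 the share was 75.0 and 37.5%, from 4 and 8 Met reads with replicate 2 left out for want of any, against 46.8, 32.4 and 22.6% in Eph4-ev. That difference of 22.3 points lay within the spread too (exact permutation p = 0.4, smallest possible 0.2), and leaving out single libraries moved it between 3.56 points (without 4T1 replicate 1) and 41.1 points (without 4T1 replicate 3).

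Exon 3 starts took a large share of Met reads in Eph4-ev, a contrast chosen after the values were seen. Of the reads from the 4 circRNAs that start at exon 2 or 3, all of which both tables list, those starting at exon 3 were 0 of 3 and 3 of 6 in 4T1 replicates 1 and 3. In the Eph4-ev libraries they were 21 of 45, 19 of 36 and 18 of 31 reads, or 46.7, 52.8 and 58.1%. In the B16F10 libraries they were 3 of 193, 0 of 179 and 3 of 193 (1.55, 0 and 1.55%), and in the Melan-a libraries 1 of 13, 4 of 63 and 0 of 16 (7.69, 6.35 and 0%). Pooled, exon 3 starts were 33.3% in 4T1 (95% exact binomial interval 7.49 to 70.1), 51.8% in Eph4-ev (42.1 to 61.3), 1.06% in B16F10 (0.391 to 2.30) and 5.43% in Melan-a (1.79 to 12.2). Every Eph4-ev library thus lay far above every library of the melanocytic lines, Melan-a replicate 2 included.

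The Eph4-ev share averaged 52.5 ± 5.7% (SD, n = 3), against 4.68 ± 4.11% in Melan-a and 1.04 ± 0.90% in B16F10. The difference was 47.8 points from Melan-a and 51.5 points from B16F10. Each exact two-sided permutation test gave p = 0.1, the smallest that 3 against 3 allows, and 0.5 after Benjamini-Hochberg adjustment over 10 tests of shares. Libraries that lie wholly apart give that p by themselves. The contrast was chosen on seeing them apart, so nothing is read from these p-values. By the means of libraries, the difference had the same direction at each donor. Among loops that end at exon 3 the Eph4-ev share was 46.4 points above Melan-a and 52.1 above B16F10, and among loops that end at exon 4 it was 49.4 and 48.9 points above them. The exon 4 values rest on 28 Eph4-ev reads and varied between libraries. There, exon 3 starts had 7, 1 and 7 reads in Eph4-ev replicates 1, 2 and 3, against 2, 5 and 6 for exon 2 starts. This split too was chosen after the values were seen, so it is no separate support. Between B16F10 and Melan-a the share differed by −3.64 points (exact permutation p = 0.4, adjusted 0.571). With 9 such reads in 4T1, its difference of −27.5 points from Eph4-ev was not resolved by 2 libraries against 3 (exact permutation p = 0.4, adjusted 0.571, smallest possible 0.2). Tumour state, lineage and table differ together between Eph4-ev and B16F10, and lineage and table between Eph4-ev and Melan-a, so these cannot be told apart.

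**Figure D3:**
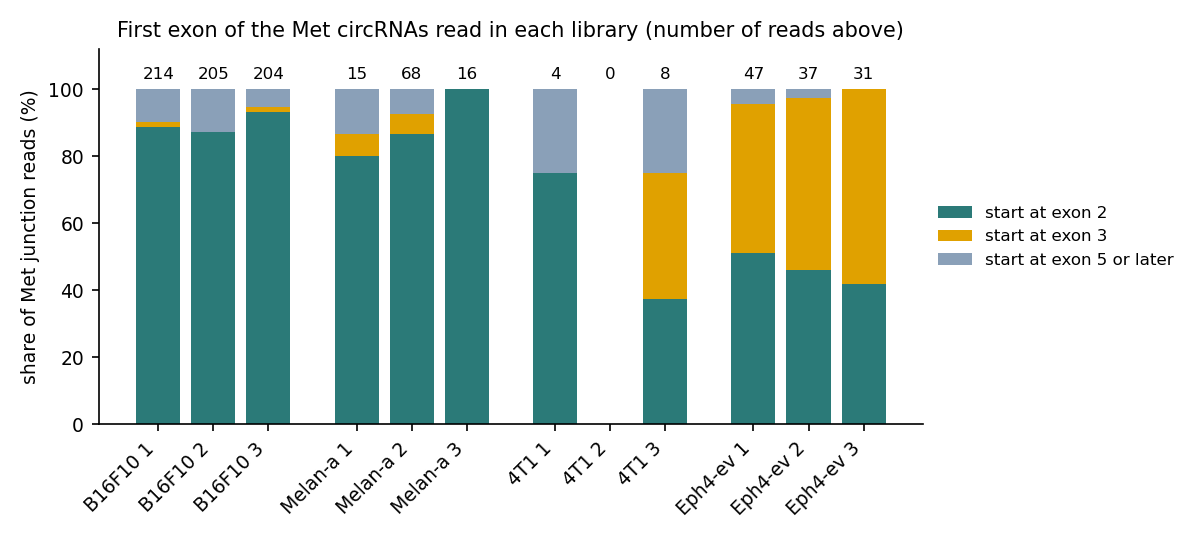
Share of Met junction reads (y axis, %) in each library by the exon at which the circRNA starts, with the number of Met reads above each bar. Exon 3 starts (yellow) take 44.7 to 58.1% in the Eph4-ev libraries and at most 6.67% in any B16F10 or Melan-a library; 4T1 replicate 2 held 0 Met reads.

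For the end exon, none of the lines compared stood wholly apart from the other, and with 3 or fewer libraries a line no test of shares could reach 0.05. Of the reads that start at exon 2 or 3, those ending at exon 4 were 32.2 ± 1.9% in B16F10 and 33.3 ± 8.2% in Melan-a (difference −1.03 points, exact permutation p = 1). In Eph4-ev they were 26.2 ± 13.7% (SD, n = 3), which was −7.06 points from Melan-a (exact permutation p = 0.5, adjusted 0.625) and −6.03 points from B16F10 (exact permutation p = 0.4, adjusted 0.571). In 4T1 they were 1 of 9 reads, from the libraries of replicates 1 and 3, with a difference of −17.9 points from Eph4-ev (exact permutation p = 0.4, smallest possible 0.2).

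The start exon changes the reading frame that a loop could carry. Junction reads do not show which exons lie inside a loop, so the following holds if all annotated exons between the ends are kept. With exon 2 the loop of exons 2 to 3 is 1260 bases long, a multiple of 3 (420 codons), and the frame of the annotated start codon meets no stop codon anywhere round it. The loop of exons 2 to 4 has 1452 bases (484 codons) and likewise no stop in that frame. Without exon 2 the lengths are 1211 and 1403 bases, which leave a remainder of 2 when divided by 3, so the frame shifts on crossing the join. In exon 3 alone the frame then runs through 399 whole codons of Met and 5 more from the join on before a stop codon, at base 16 of the loop. That stop overlaps the start codon, which begins at base 15, in the capitals of the exon 3 junction above. In the loop of exons 3 to 4 it runs through 463 whole codons and the same 5. These are properties of the sequence, and no readout of translation was analysed here.

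To place Met among its partners, circRNA reads were summed per host gene for 6 lists of MET pathway genes (84 genes) and for 53 genes of other receptor tyrosine kinases. They were tested with edgeR over all hosts, and a host was called at an adjusted p under 0.05. Hgf, the ligand, had no circRNA reads in any library, and no gene of the ligand or coreceptor lists passed the filter. In 4T1 against Eph4-ev, of the 22 tested hosts of these lists that are reported here, 1 rose and 0 fell in edgeR. DESeq2 also called 1 higher and 0 lower. The median log2 fold of these 22 was −0.38. Of all 1515 hosts, 6.86% rose and 10.6% fell in edgeR, with a median of −0.09, and DESeq2 called 96 higher and 149 lower. In B16F10 against Melan-a, none of 16 was called in edgeR, and DESeq2 called 1 higher (Pax3). There 2.78% of 898 hosts rose and 4.34% fell in edgeR, and DESeq2 called 28 higher and 31 lower. The medians were 0.29 for the listed hosts and −0.0015 for all. An unadjusted edgeR p under 0.05, in either direction, was reached by 6 of the 22 and 2 of the 16. The share of all hosts at that threshold was not counted, so nothing is read from these counts.

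Among transcription factors reported to act at the Met promoter, Ets1 and Pax3 are described here, and Pax3 has no tested fold in the mammary lines alone. Ets1 had 9, 11 and 26 reads in 4T1, against 6, 2 and 7 in Eph4-ev, and rose by 2.50 on the log2 scale (SE 0.69, edgeR adjusted p = 0.0210). This call was lost without 4T1 replicate 3 or any of the Eph4-ev libraries (edgeR adjusted p = 0.0558 to 0.116). In B16F10 Ets1 had 16, 13 and 14 reads, against 32, 25 and 24 in Melan-a (log2 fold −0.39, SE 0.36, not called). Pax3, which directs the melanocyte lineage, had 15, 18 and 18 reads in B16F10, against 3, 14 and 1 in Melan-a. As with Met, its highest Melan-a value was in replicate 2, and in edgeR it stood 2.10 higher on the log2 scale (SE 0.63, adjusted p = 0.0591), or 3.43 (SE 0.63, adjusted p = 0.00407) without that library. In 4T1 Pax3 had no reads, against 12, 2 and 5 in Eph4-ev. The edgeR interaction, the B16F10 fold minus the 4T1 fold, passed for 10.1% of 1325 hosts. These include hosts with 0 reads in a whole lineage, which it cannot resolve, such as Fgfr2 in the melanocytic lines (SE 12667). Among hosts read in both lineages the share may thus be higher. The interaction passed for Ets1 (−2.86, SE 0.71, adjusted p = 0.00847) and Pax3 (7.13, SE 1.77, adjusted p = 0.00925). The Pax3 value rests on 0 reads in 4T1, so its size depends on the fit. Pax3 did not pass the filter on low counts in the mammary lines alone. It is also among the hosts picked below for likeness to Met, so nothing is read from its pass.

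**Figure D4:**
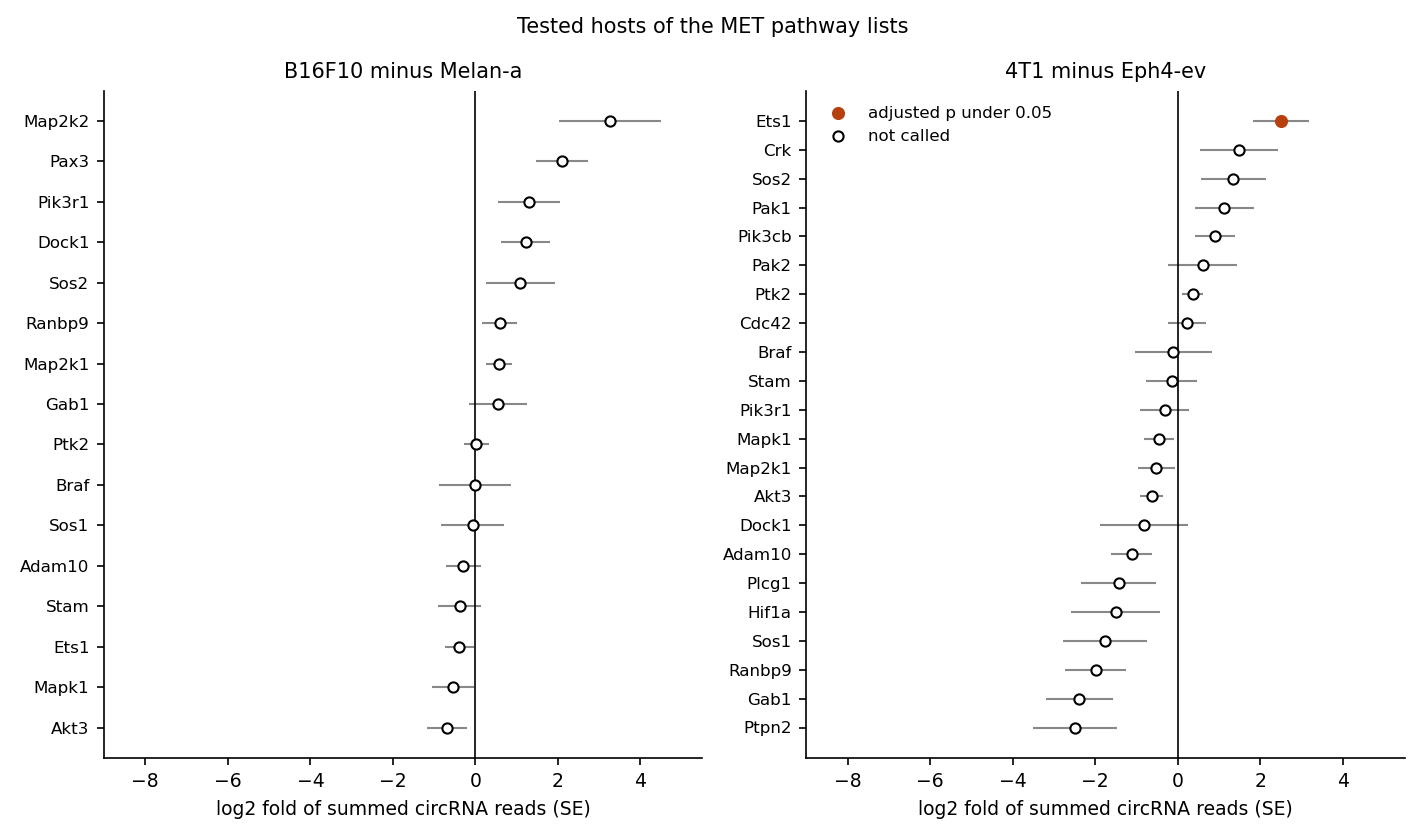
Log2 fold of summed circRNA reads with its SE (x axis) for the tested hosts of the MET pathway lists that are reported here, B16F10 minus Melan-a on the left and 4T1 minus Eph4-ev on the right. Filled points passed an edgeR adjusted p under 0.05. Ets1 lies at 2.50 in 4T1 and was called, and no other host shown was called in either comparison.

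Of the adaptors, Ptk2 (focal adhesion kinase) had most reads and was called in neither lineage. It had 33, 27 and 33 reads in B16F10 against 45, 37 and 49 in Melan-a (log2 fold 0.02, SE 0.30), and 48, 35 and 104 in 4T1 against 102, 85 and 93 in Eph4-ev (0.36, SE 0.25). Among other receptor tyrosine kinases, 1 of 4 tested rose in B16F10, where 2.78% of all hosts did, and 1 of 6 fell in 4T1, where 10.6% did. Epha3, an ephrin receptor, had 88, 67 and 72 reads in B16F10, against 9, 20 and 18 in Melan-a. It rose by 2.81 on the log2 scale, with an SE of 0.30 and an edgeR adjusted p of 6.10e-05. Fgfr2, a fibroblast growth factor receptor, had 0 reads in 4T1, against 78, 55 and 55 in Eph4-ev, at least 30.0-fold lower (edgeR adjusted p = 5.61e-05). Both are set here beside Met with their own values, and neither is read in both lineages: Epha3 is not listed in the mammary table as a single host, and Fgfr2 has 0 reads in B16F10 and Melan-a. The insulin receptor gene Insr was called in neither lineage, with log2 folds of −1.002 (SE 0.49) in B16F10 and 0.37 (SE 0.27) in 4T1. Nor was Igf1r, its relative, with −0.67 (SE 0.95) in B16F10 and 0.33 (SE 0.23) in 4T1.

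The hosts whose circRNA levels followed Met most closely were Pax3, Ezh2, Hnrnpll, Ankib1 and Fam193a. Over the 12 libraries, Pearson's r of log2(RPM + 20) with Met was 0.92, 0.91, 0.90, 0.90 and 0.89 in that order, among 1164 hosts with at least 60 reads. The points share libraries and lines, and Met itself separates the lines, so r is given as a description with no p. Ezh2, the catalytic subunit of the Polycomb complex that methylates histone H3, averaged 11618 ± 329 RPM in B16F10 and 6772 ± 2009 in Melan-a, and 1518 ± 301 in 4T1 against 5603 ± 115 in Eph4-ev (SD, n = 3 each). Hnrnpll, an RNA-binding regulator of splicing, averaged 1878 ± 730 RPM in B16F10 and 1087 ± 291 in Melan-a, and 556 ± 216 in 4T1 and 952 ± 198 in Eph4-ev. Ankib1 and Fam193a had the same order of B16F10 highest and 4T1 lowest by their means. Of the 5 hosts, Pax3, Ezh2 and Hnrnpll had, like Met, their highest Melan-a value in replicate 2. They were picked by r over all 12 libraries, that one included, so this is no separate likeness. The share of all hosts that were highest there was not counted.

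**Figure D5:**
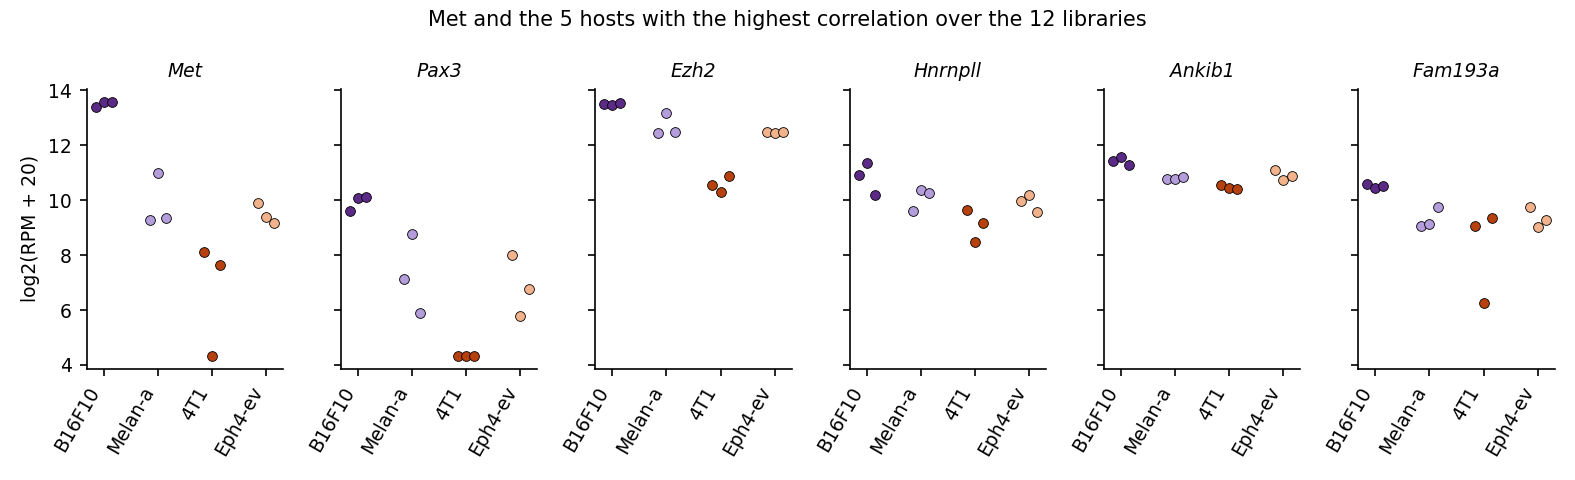
Summed circRNA level per library as log2(RPM + 20) for Met and the 5 hosts with the highest Pearson's r with it (0.92 to 0.89). Points are libraries; the B16F10 libraries lie highest and the 4T1 libraries lowest for Met, Pax3 and Ezh2, and the spread between lines is smaller for Hnrnpll, Ankib1 and Fam193a.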

How the data were processed

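Met circRNAs were described in 12 libraries, 3 for each of 4 mouse cell lines, from 1 deposited table per lineage. Per the labels' protocols, RNase R-treated RNA was sequenced and 2 callers were run, CIRI2 after BWA-MEM and CIRCexplorer2 after TopHat-Fusion. Per the submitters' processing notes, coordinates are those of mm10, and DESeq, DESeq2 and edgeR are named with no role. For the merging of the callers, the filters and the annotation, the details were not given in the sources used here. The count columns, per the file headers, hold back-spliced junction reads as deposited. The RPM columns were scaled by the authors to each library's junction reads. Multiplied back, 100% of RPM values came out whole (tolerance 0.01), with a largest difference of 0 from the deposited counts. Columns of per-library values with no matching sample numbered 0. No molecular identifiers are mentioned, so reads may not be independent molecules.

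The members and the gene lists were chosen with earlier results of these data known. Some genes of these pathways are not reported here and are outside the counts of listed hosts. Host values sum the counts of circRNAs that name 1 host, so 160 mammary and 201 melanocyte entries with several hosts were left out, none of them naming Met. Exons and junction sequences come from the GENCODE M21 transcripts of the same build. Each lineage was fitted alone, over all hosts or all circRNAs, by edgeR 4.0.16 in R 4.3.3: quasi-likelihood F test, TMM factors, filterByExpr (minimum count 5, minimum total 10) and Benjamini-Hochberg adjustment. Folds are B16F10 minus Melan-a and 4T1 minus Eph4-ev, with the SE derived from the F statistic. The interaction used all 12 libraries. Pooled ratios, bounds (floor of 3 counts over a line) and 95% exact intervals use total junction reads and no TMM factors. The bounds take the reads of the other line as exact. For shares, exact permutation tests were run, two-sided (SciPy 1.17.1). Named were each Met circRNA with at least 5 reads (9 of 11), listed hosts called in either comparison, the 3 listed hosts with most reads among the others, and the 5 hosts with the highest Pearson's r with Met. Alternatives were RLE factors, library totals in place of factors, an unfiltered fit, a higher minimum count (10), DESeq2 1.42.0, a replicate block, other denominators, a pseudocount of 100 RPM, Spearman's rho, at least 120 reads, and leaving out each library. The edgeR steps were tested on simulated counts.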

Additional observations from a re-analysis of the deposited data

Results flagged for a closer look

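Some results moved in opposite directions in the 2 lineages. The summed Met circRNAs were higher in every B16F10 library than in every Melan-a library and lower in every 4T1 library than in every Eph4-ev library, with a difference of the log2 folds of 5.63, which was not tested because Met was picked on these values. The circRNA of Met exons 2 to 4 did the same, with a pooled ratio of 10.9 in B16F10 over Melan-a and a level at least 2.07-fold lower in 4T1 than in Eph4-ev, also untested.

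Of the hosts most like Met, Pax3 (7.13), Ezh2 (2.69) and Ankib1 (1.16) had libraries that separated in the same opposite directions, with the difference of log2 folds in parentheses. They were picked for their likeness to Met, so this was not tested for Ezh2 and Ankib1. Pax3 is also on a pathway list, where the edgeR interaction over all hosts passed (adjusted p = 0.00925). Nothing is read from that pass. Pax3 was picked here for its likeness to Met, had 0 reads in 4T1 and did not pass the filter in the mammary lines alone. The interaction passed as well for Ets1 (−2.86, adjusted p = 0.00847), whose fold between B16F10 and Melan-a was not called.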

How the results depend on the processing

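Among the limits are depth, with 12 Met reads in the 3 4T1 libraries together, and Melan-a replicate 2. The log2 folds of Met kept their sign under all alternatives run. Leaving out single libraries moved the Met fold between 2.99 and 4.16 in B16F10 (highest without Melan-a replicate 2) and between −2.77 and −1.93 in 4T1; other settings gave 3.34 to 3.48 and −2.56 to −2.23. Without Melan-a replicate 2 the folds of exons 2 to 3 and exons 2 to 4 in B16F10 were 4.31 and 3.86, and without 4T1 replicate 3 that of exon 3 in 4T1 was −6.47, which rests on 0 reads (at least 2.93-fold lower). The share of exons 2 to 3 in B16F10 minus Melan-a ranged from −2.89 (without Melan-a replicate 1) to 6.13 points without single libraries, and that in 4T1 minus Eph4-ev from 3.56 to 41.1; with only exons 2 to 3 and 2 to 4 counted it was 2.47 and 27.97. The exon 3 start share, whose alternatives were chosen after seeing the data, stayed 45.04 to 50.7 points above Melan-a and 48.7 to 54.4 above B16F10 in Eph4-ev without single libraries.

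The labels do not say whether replicate numbers pair the samples. Deviations of same-numbered libraries correlated at −0.024, −0.040 and 0.020 (mammary) and −0.0018, −0.082 and −0.053 (melanocytic). Those of libraries with different numbers correlated at −0.026 to 0.053 (mammary) and −0.026 to 0.075 (melanocytic). With 3 libraries per line these values cannot settle whether the samples were paired. With the replicate block the Met fold was 3.48 in B16F10 and −2.46 in 4T1, the shares differed by 2.76 and 21.6 points, and Pax3 was called in B16F10 (adjusted p = 0.0111).

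Of 25 to 30 pathway hosts tested without single libraries, 0 to 1 were called higher in 4T1 and 0 to 2 lower, against 0 lower with all libraries. Over all 1697 to 1772 hosts tested there, 31 to 91 were called higher and 42 to 170 lower. The unfiltered fit called 2 of 51 pathway hosts lower, and 207 of all 3617 hosts. With the minimum count of 10 it was 1 of 17, and 133 of all 960 hosts. In B16F10, 1 of 16 was called higher under DESeq2, RLE factors, library totals in place of factors and the replicate block. Of all 898 hosts, 28 to 36 were called higher there. The unfiltered fit called 1 of 39, and 41 of all 3414 hosts. With the minimum count of 10 it was 1 of 10, and 33 of all 515 hosts. Without single libraries 0 to 1 of 17 to 21 were called higher, and 16 to 60 of all 902 to 1143 hosts. In each case the pathway host was Pax3 (edgeR or DESeq2 adjusted p 0.00407 to 0.0494 where called). Of other receptor kinases, 2 of 13 were called lower in 4T1 in the unfiltered fit, and 1 to 2 of 6 to 9 without single libraries. The counts over all hosts given above for 4T1 hold here too. In B16F10 the uncalled fold changed sign without single libraries for Ptk2 (−0.18 to 0.17, lowest without Melan-a replicate 2, and −0.022 without B16F10 replicate 3). Of the 5 hosts most like Met, 2 were shared with a pseudocount of 100 RPM, 2 with Spearman's rho and 4 with at least 120 reads. The cause of these changes was not tested.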
